A study of Mus musculus with 24 samples.

Results

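The genes described here are 30 genes of cholesterol and fatty acid synthesis that are known targets or parts of the SREBP system, followed in TM3 cells, an established line of mouse Leydig cells, the testosterone-producing cells of the testis. They were chosen by name, as textbook members of the pathway and with earlier results of these data known, and 29 of the 30 were measured, out of 23787 genes with a probe that carried a RefSeq transcript. Acat2, which condenses acetyl-CoA units at the entry to the pathway, had no such probe. The cells had been detached, suspended in Annexin V binding buffer in an electroporation cuvette, and either left unpulsed (sham) or exposed to a nanosecond pulsed electric field (nsPEF) of 80 pulses of 60 ns at 5.5 kV, a field of 14 kV/cm, over 180 s. RNA was taken at 0, 4 and 24 h from 4 biological replicates of each treatment, which gave 6 groups and 24 one-colour arrays. The sham cells shared the detaching, the suspension and the cuvette, so a comparison of times within sham follows handled cells and not an undisturbed culture.

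Cholesterol is built from acetyl-CoA through mevalonate, isoprenoid units, squalene and lanosterol, and long-chain fatty acids are built from the same acetyl-CoA by carboxylation, chain synthesis, elongation and desaturation. The transcription factors SREBP-1 and SREBP-2 (genes Srebf1 and Srebf2) sit in the endoplasmic reticulum with the sterol sensor Scap. When sterols are low the complex travels to the Golgi, where proteases free the active factor, and when sterols are high Insig proteins hold it back. In Leydig cells cholesterol is also the starting material of testosterone.

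Each value below is a log2 signal minus the 75th percentile of its array, so 0 marks the 75th percentile and a difference of 1 is a doubling, and differences between groups are on this log2 scale unless given as a percent of the earlier or sham level. The levels of different genes come from different probes and are not set against each other. A gene was called changed at an adjusted p below 0.05 in limma, adjusted over all 37684 probes tested. All 29 genes passed the filter on dim probes, and 28 were well above background on all 24 arrays, with Elovl6 so on 23, since its spot in replicate 2 of nsPEF at 24 h was marked as an outlier and dropped (n = 3 there). Each slide held the 8 arrays of a single time, which means that a slide effect and an effect of time cannot be told apart. Sham arrays filled the upper row of every slide and nsPEF arrays the lower, so that place on the slide and treatment cannot be told apart either. The share of probes well above background was 57.5% to 62.1% on the sham arrays and 51.2% to 57.2% on the nsPEF arrays, and the 75th percentile lay between 202 and 533 intensity units. Of 7 Leydig cell markers with a probe, Star, Cyp17a1 and Nr5a1 were well above background on all 24 arrays, and Cyp11a1, Hsd3b1, Hsd3b6 and Lhcgr were so on no array. The 4 markers of peritubular cells or fibroblasts (Acta2, Pdgfra, Col1a1 and Vim) were well above background on all arrays, as were 2 of 5 Sertoli cell, 1 of 4 germ cell, 2 of 4 macrophage and 1 of 3 endothelial markers.

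SREBP factors bind sterol regulatory elements together with NF-Y, which recognises CCAAT boxes, and Sp1, which recognises GC boxes, so the 250 bases before the transcription start are shown for a few of the genes that the results turn on. Hsd17b7 and Cyp51 were higher at 4 h than at 0 h, and Mvd and Dhcr7 were lower. Hmgcs1 was the only gene with a window that held the exact letters TCACNCCAC. Other forms of the element were not searched, so the other windows may hold one. The sequences are from RefSeq (build GRCm38.p6), 5′ to 3′ on the strand of the gene, with capitals for TCACNCCAC (a sterol regulatory element), CACGTG (an E-box) and CCAAT boxes, which show as ATTGG where they lie on the opposite strand. None of the capitalised motifs overlapped another in these windows. Hsd17b7 is at chr1:169969206-169969455, reverse strand, Cyp51 at chr5:4104698-4104947, reverse strand, Dhcr7 (the third of 3 listed starts) at chr7:143829964-143830213, forward strand, Mvd at chr8:122443423-122443672, reverse strand, and Hmgcs1 at chr13:119690101-119690350, forward strand.
Hsd17b7: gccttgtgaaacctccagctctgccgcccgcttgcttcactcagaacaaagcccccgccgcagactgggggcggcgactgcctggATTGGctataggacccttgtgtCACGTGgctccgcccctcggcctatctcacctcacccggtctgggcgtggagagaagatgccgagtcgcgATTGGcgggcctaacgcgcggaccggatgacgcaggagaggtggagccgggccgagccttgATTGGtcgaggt
Cyp51: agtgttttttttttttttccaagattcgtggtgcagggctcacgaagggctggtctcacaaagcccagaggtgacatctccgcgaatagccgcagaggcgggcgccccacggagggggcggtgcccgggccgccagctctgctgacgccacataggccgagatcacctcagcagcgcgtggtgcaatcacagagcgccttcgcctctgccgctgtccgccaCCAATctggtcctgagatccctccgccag
Dhcr7: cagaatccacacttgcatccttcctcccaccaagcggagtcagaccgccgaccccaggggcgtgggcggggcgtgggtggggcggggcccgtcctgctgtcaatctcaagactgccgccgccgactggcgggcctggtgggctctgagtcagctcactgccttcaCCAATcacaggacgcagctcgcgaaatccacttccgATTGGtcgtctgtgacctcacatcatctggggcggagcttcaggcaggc
Mvd: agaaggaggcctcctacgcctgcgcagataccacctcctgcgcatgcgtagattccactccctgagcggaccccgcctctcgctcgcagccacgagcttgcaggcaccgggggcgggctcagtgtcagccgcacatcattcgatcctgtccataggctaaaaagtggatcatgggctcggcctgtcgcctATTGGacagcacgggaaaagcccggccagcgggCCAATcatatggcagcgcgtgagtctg
Hmgcs1: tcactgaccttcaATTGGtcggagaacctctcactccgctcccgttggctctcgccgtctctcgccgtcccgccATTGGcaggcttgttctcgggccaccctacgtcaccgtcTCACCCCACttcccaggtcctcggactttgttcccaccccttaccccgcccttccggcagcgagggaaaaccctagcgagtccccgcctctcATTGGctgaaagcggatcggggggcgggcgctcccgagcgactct

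A window was listed for 23 of the 30 genes and for none of Fads1, Fdft1, Fdps, Scd1, Scd2, Sqle and Stard4. On either strand, CCAAT occurred before at least 1 start of 18 of the 23 genes (78.3%), against 37.5% of 27025 genes with a window, and the GC box GGGCGG, which is not capitalised above, occurred in 19 (82.6%) against 35.4%. CACGTG occurred in 4 (Hsd17b7, Insig1, Sc5d and, at a start other than the one shown, Dhcr7, or 17.4%, against 6.86%) and TCACNCCAC in Hmgcs1 alone (4.35%, against 1.22%). The windows of Hsd17b7 and Cyp51, which rose at 4 h, and of Mvd and Dhcr7, which fell, each held at least 1 CCAAT box. A match describes the letters in the window and says nothing of binding.

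Between 0 h and 4 h in sham cells the synthesis genes split. Of the 29 genes, 25 were called changed, 10 of them higher and 15 lower at 4 h, among all probes tested of which 29.4% were called higher and 29.7% lower. Enzymes of one route moved in opposite directions, from Hsd17b7, a 3-keto reductase of the sterol demethylation complex, which reached 201% of its 0 h level, to Dhcr7, which makes the last reduction to cholesterol and fell to 46.3%. The median over the 29 genes was -0.13, and -0.01 over all probes. Quantile normalization gave 8 higher and 18 lower (58.8% of all probes called). Spike-in scaling (55.6%) and normexp (57.2%) each gave 10 higher and 12 lower. Under normexp the median of the genes (-0.07) lay above that of all probes (-0.16), with 11 of the 29 genes below the latter.

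The enzymes from acetoacetyl-CoA to farnesyl diphosphate mostly fell by 4 h. Of the 6 measured, 5 fell, with Mvk, the mevalonate kinase, at -0.79 and Mvd, which decarboxylates mevalonate diphosphate, at -0.92, and with smaller falls in Hmgcs1, the HMG-CoA synthase (-0.40), Pmvk, the phosphomevalonate kinase (-0.32), and Fdps, the farnesyl diphosphate synthase (-0.28). Idi1, which isomerises isopentenyl diphosphate, rose by 0.51. Mvd in sham read 2.32, 2.34, 2.42 and 2.27 (0 h), then 1.45, 1.46, 1.40 and 1.39 (4 h), then 0.96, 1.01, 1.00 and 1.15 (24 h). With nsPEF, Mvd read 2.23, 2.31, 2.28 and 2.35 (0 h), then 1.29, 1.33, 1.33 and 1.29 (4 h), then 0.70, 0.90, 1.03 and 1.03 (24 h). The 0 h, 4 h and 24 h readings of Mvd did not overlap in either treatment. The difference of Mvd from 0 h to 4 h was -0.92 ± 0.06 (SE, n = 4 per group, adjusted p = 5.5e-11 in limma) in sham.

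Of the 11 enzymes from squalene synthesis to cholesterol, 5 rose and 5 fell by 4 h in sham. Those that rose were Hsd17b7 (1.01), Sc5d, the sterol C5 desaturase (0.73), Cyp51, the lanosterol demethylase (0.49), Msmo1, the C4-methyl sterol oxidase (0.29), and Sqle, the squalene epoxidase (0.27). Those that fell were Dhcr7 (-1.11), Tm7sf2, a sterol C14 reductase (-0.62), Fdft1, the squalene synthase (-0.34), Ebp, the sterol isomerase (-0.22), and Nsdhl, the C4 decarboxylating dehydrogenase (-0.13). The call of Nsdhl had an adjusted p of 0.0485 and was lost under 5 of 12 alternatives and in 22 of 28 settings that left out arrays. Lss, the lanosterol synthase, differed by -0.12 and was not called, while another probe of Lss gave -0.53 and was called.

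The largest of these moves were in Hsd17b7 and Dhcr7. Hsd17b7 in sham read 3.38, 3.45, 3.39 and 3.35 (0 h), then 4.30, 4.48, 4.36 and 4.46 (4 h), then 2.16, 2.24, 2.27 and 2.13 (24 h). With nsPEF, Hsd17b7 read 3.24, 3.18, 3.31 and 3.22 (0 h), then 4.30, 4.52, 4.30 and 4.41 (4 h), then 2.29, 2.31, 2.29 and 2.34 (24 h). In both treatments every 4 h array was above every 0 h array, and every 24 h array was below them. The difference from 0 h to 4 h in sham was 1.01 ± 0.05 (SE, adjusted p = 1.7e-12 in limma), and from 4 h to 24 h it was -2.20 ± 0.05. Dhcr7 ran the other way at 4 h. Dhcr7 in sham read 0.76, 0.79, 0.94 and 0.91 (0 h), then -0.41, -0.22, -0.29 and -0.12 (4 h), then 0.31, 0.37, 0.44 and 0.41 (24 h). With nsPEF, Dhcr7 read 0.87, 0.90, 0.76 and 0.84 (0 h), then -0.41, -0.49, -0.43 and -0.31 (4 h), then 0.11, 0.22, 0.49 and 0.10 (24 h). Its 4 h arrays were all below 0 and its 24 h arrays lay between those of 4 h and 0 h, with a difference of -1.11 ± 0.08 from 0 h to 4 h in sham (adjusted p = 1.05e-10 in limma) and 0.64 ± 0.08 from 4 h to 24 h.

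Among the regulators, the genes of both SREBP factors rose by 4 h, Srebf2 by 0.37 and Srebf1 by 0.23, and Insig1, the retention factor that is itself a target, fell by 0.21. The call of Srebf1 was lost under quantile normalization and under a 75th percentile over detected probes, and that of Insig1 under spike-in scaling and under centring by rows of spots. Stard4, a carrier of sterol between membranes, differed by 0.08 and was not called. In fatty acid synthesis, Fasn, the fatty acid synthase, rose by 0.55 and Elovl6, which elongates its product, by 0.23, while the desaturases Scd1 (-0.16), Scd2 (-0.46), Fads1 (-0.46) and Fads2 (-0.39) all fell. The call of Elovl6 was lost under 4 of 12 alternatives and that of Scd1 under spike-in scaling and normexp. Fads1 kept its call, and its value ran from -1.16 to -0.39 over the other settings. Acly, which makes cytosolic acetyl-CoA from citrate (-0.08), and Acaca, the acetyl-CoA carboxylase (0.00), were not called.

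**Figure D1:**
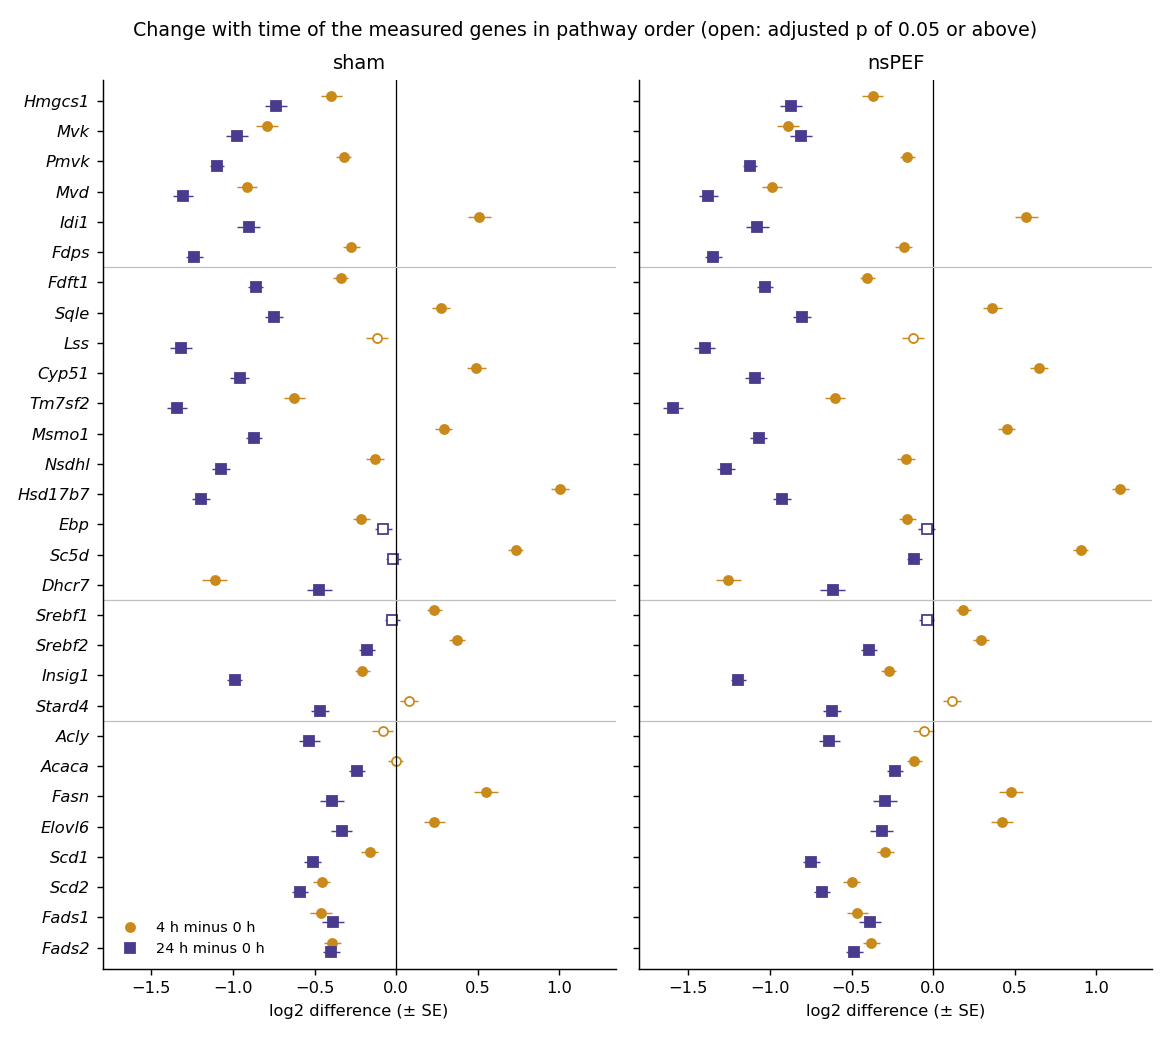
Log2 difference from 0 h (x axis, ± SE, n = 4 arrays per group, 3 for Elovl6 in nsPEF at 24 h) for the 29 genes in pathway order (y axis), at 4 h (circles) and 24 h (squares), in sham (left) and nsPEF (right). Filled symbols were called, and grey lines part the roles. Circles lie on both sides of 0, whereas all squares lie below 0 when arrays are scaled on their 75th percentile, and 15 of 29 do in sham when scaled on spike-in RNA.

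By 24 h most of the pathway was lower in sham relative to other transcripts. All 29 genes were below their 0 h level, as were 50.1% of all probes. Of the 29, 26 were called, all of them lower, where 19.7% of all probes were called lower and 16.9% higher. The median over the 29 genes was -0.74, where that of all probes was near 0. Scaled on the spike-in RNA, the median of all probes was itself 0.70 higher at 24 h than at 0 h, and on that scale 12 of the genes were called higher and 10 lower, with 15 below 0, where 76.2% of all probes were called in either direction. That scaling moves all probes of an array alike, so it leaves the distance of the gene median from the median of all probes at -0.74. Under quantile normalization the distance was -0.62, with 26 genes below the median of all probes, and under normexp -0.54, with 25. The arrays read the RNA of whole cultures of the TM3 line. Fewer cells with a transcript and less of it per cell cannot be told apart. Genes known as cell type markers also moved in this comparison, which does not show that such cells were in the culture. The Leydig cell markers Star (-0.63), Cyp17a1 (-0.82) and Nr5a1 (-0.30), the macrophage markers Csf1r (-0.52) and Cd68 (-1.17), Sox9 (-2.83) of Sertoli cells, Ddx4 (-0.96) of germ cells, and Pdgfra (-0.19) and Col1a1 (-0.45) of fibroblasts were called lower and Pecam1 (0.64) of endothelium higher, and spike-in scaling turned Star, Nr5a1, Csf1r, Pdgfra and Col1a1 positive. Gata4, Dazl, Pou5f1, Acta2 and Vim were tested and not called, and the part of what moved these markers in the result was not tested. Ddx4 was well above background on 16 of the 24 arrays.

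The fall at 24 h was deepest in the sterol enzymes. All 6 measured mevalonate and isoprenoid enzymes fell, with a median of -1.04 and the lowest values in Mvd (-1.31), Fdps (-1.24) and Pmvk (-1.10), and 9 of the 11 enzymes after them fell, with a median of -0.87. Under spike-in scaling all of these but Dhcr7 stayed below 0, but Hmgcs1 (-0.04), Sqle (-0.05), Fdft1 (-0.16), Msmo1 (-0.17) and Idi1 (-0.21) were no longer called. Fdps in sham read 6.59, 6.65, 6.73 and 6.66 (0 h), then 6.42, 6.47, 6.41 and 6.24 (4 h), then 5.34, 5.42, 5.44 and 5.49 (24 h). With nsPEF, Fdps read 6.64, 6.69, 6.61 and 6.56 (0 h), then 6.46, 6.50, 6.42 and 6.40 (4 h), then 5.23, 5.31, 5.34 and 5.23 (24 h). The 24 h readings of Fdps stood apart from those of both earlier times, at 42.4% of the 0 h level in sham (-1.24 ± 0.05, SE, adjusted p = 4.58e-13 in limma).

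Tm7sf2 and Lss had the lowest values relative to 0 h. Tm7sf2 in sham read 0.98, 0.96, 0.94 and 1.08 (0 h), then 0.42, 0.41, 0.27 and 0.37 (4 h), then -0.38, -0.30, -0.37 and -0.35 (24 h). With nsPEF, Tm7sf2 read 0.92, 0.89, 0.97 and 1.07 (0 h), then 0.46, 0.36, 0.30 and 0.32 (4 h), then -0.48, -0.67, -0.57 and -0.81 (24 h). No array of one time overlapped with an array of another, and in sham the gene stood at 64.9% of its 0 h level at 4 h and at 39.4% at 24 h (-1.34 ± 0.06, SE, adjusted p = 2.5e-12 in limma). Lss closes squalene epoxide into lanosterol, the first sterol of the pathway. Lss in sham read 4.29, 4.30, 4.23 and 4.39 (0 h), then 4.22, 4.30, 4.20 and 4.02 (4 h), then 2.88, 3.06, 3.05 and 2.94 (24 h). With nsPEF, Lss read 4.12, 4.04, 4.21 and 4.24 (0 h), then 4.04, 4.18, 3.90 and 4.00 (4 h), then 2.74, 2.70, 2.77 and 2.78 (24 h). The 0 h and 4 h arrays of Lss overlapped in both treatments, and the 24 h arrays lay below them all, at 40.1% of the 0 h level in sham (-1.32 ± 0.07, SE, adjusted p = 9.67e-12 in limma).

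**Figure D2:**
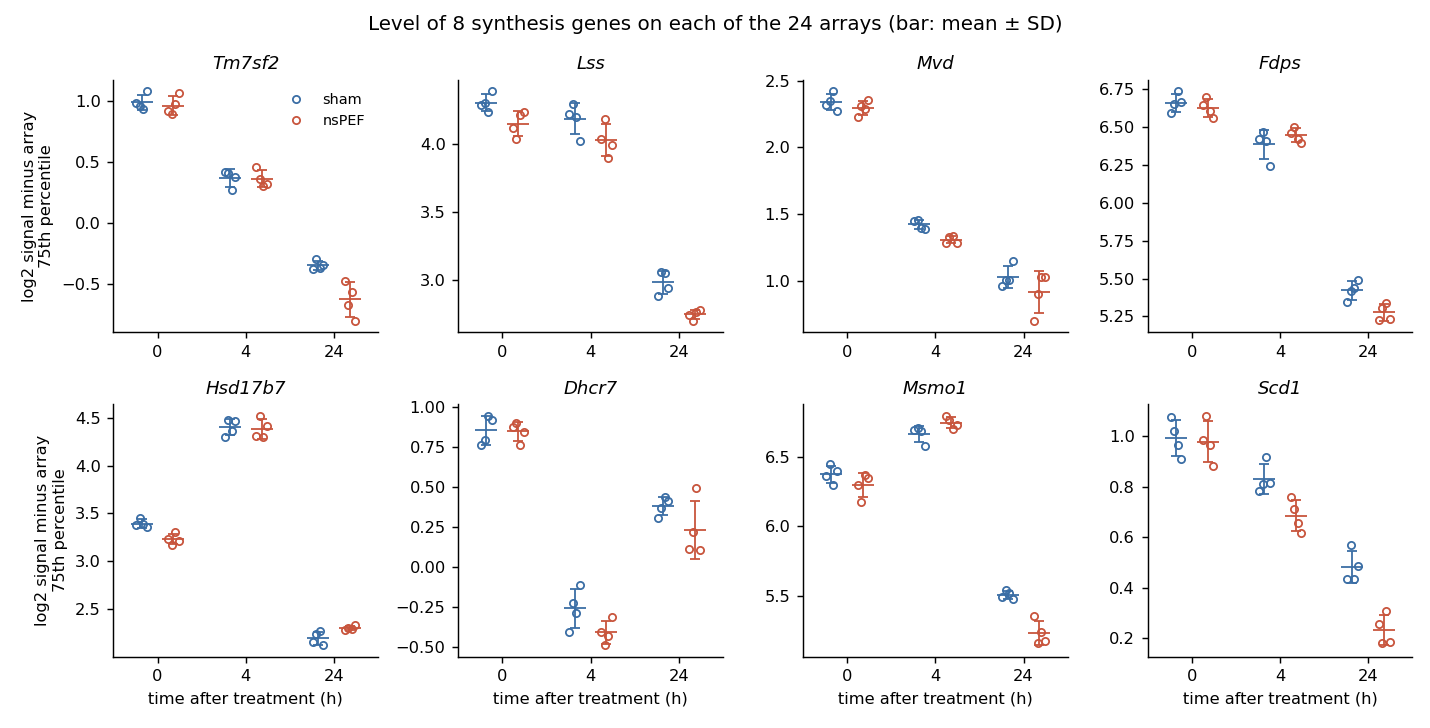
Log2 signal minus the 75th percentile of the array (y axis) at 0, 4 and 24 h (x axis) for 8 genes, with 1 open circle per array, blue for sham and red for nsPEF, and the mean ± SD of 4 arrays beside them. The y axes differ between panels. Hsd17b7 and Msmo1 are highest at 4 h, Dhcr7 is lowest at 4 h, and the other 7 genes are lowest at 24 h on this scale, whereas with spike-in scaling Scd1 and Dhcr7 in sham lie above their 0 h level at 24 h.

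The remaining sterol enzymes followed in the same direction in sham at 24 h. Nsdhl (-1.08), Hsd17b7 (-1.20), Mvk (-0.98), Cyp51 (-0.96), Idi1 (-0.90), Msmo1 (-0.87), Fdft1 (-0.86), Sqle (-0.75) and Hmgcs1 (-0.74) fell, and so did Dhcr7 (-0.47), which reversed to 0.23 under spike-in scaling. Ebp (-0.08) and Sc5d (-0.02) were not called, and read 0.62 and 0.68 under spike-in scaling, where both were called higher. Idi1, Sqle, Cyp51, Msmo1 and Hsd17b7, which had risen at 4 h, were thus called lower at 24 h than at 0 h, and of these Cyp51 and Hsd17b7 were also called lower under spike-in scaling.

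The regulators moved unequally by 24 h. Insig1 fell to 50.3% of its 0 h level (-0.99 ± 0.05, SE), Stard4 to 72.3% and Srebf2 to 88.4%, and Srebf1 (-0.02) was not called, whereas under spike-in scaling it read 0.67 and was called higher. The call of Srebf2 was lost under a 75th percentile over detected probes and under normexp. All 8 fatty acid genes fell, by less than most sterol enzymes, from -0.24 in Acaca to -0.59 in Scd2, with a median of -0.40. These sizes rest on 1 probe per gene. Over the other settings Fads1 read as low as -1.01 and Acaca as low as -0.53. Under spike-in scaling Stard4, Srebf2 and all 8 fatty acid genes stood above 0, as far as 0.52 in Srebf2, and Insig1 did not. Of the 17 other probes of these genes, 3 differed in call at 24 h (1 each of Acaca, Fads1 and Stard4), and none had the opposite sign of a called gene. In the other time comparisons 2 to 4 of the 17 differed in call, and from 0 h to 4 h in nsPEF 1 of them, a probe of Acaca, had the opposite sign of its called gene.

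From 4 h to 24 h in sham, 27 of the 29 genes were called, 25 lower and 2 higher (Dhcr7, 0.64, and Ebp, 0.14), against 29.9% of all probes lower and 27.8% higher. The median of all probes moved by 0.66 under spike-in scaling, where 11 genes were called higher and 9 lower and 71.9% of all probes were called. The lowest values were in genes that had risen by 4 h, with -2.20 in Hsd17b7, -1.45 in Cyp51 and -1.41 in Idi1. This comparison shares its 4 h arrays with the one from 0 h to 4 h, so a high 4 h reading enters both. Fads1 (0.07) and Fads2 (-0.01) were not called. Cell type markers moved from 4 h to 24 h as well, and their part was not tested. Star (-1.54), Nr5a1 (-0.49), Sox9 (-1.61), Dazl (-1.99), Pou5f1 (-0.63), Csf1r (-2.17), Cd68 (-0.26), Acta2 (-0.87) and Vim (-0.54) were called lower. Pecam1 (1.05) was called higher, and Cyp17a1, Gata4, Ddx4, Pdgfra and Col1a1 were not called.

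In the nsPEF-exposed cells the course over time is given by their own arrays. Cell type markers moved there too, with Csf1r at 2.13 from 0 h to 4 h and Sox9 at -2.74 from 0 h to 24 h. Gata4 was not called in either comparison, and the part of the markers was not tested. From 0 h to 4 h, 26 of 29 genes were called, 10 higher and 16 lower, against 33.5% of all probes higher and 27.8% lower, with Hsd17b7 at 222% and Dhcr7 at 41.9% of the 0 h level. Spike-in scaling gave 11 higher and 11 lower, with 59.2% of all probes called. From 0 h to 24 h, 27 were called, all lower, with a median of -0.80, against 18.3% of all probes lower and 23.9% higher. Tm7sf2 had the lowest value, -1.60 ± 0.06 (SE), or 33.1% of its 0 h level, and Ebp (-0.04) and Srebf1 (-0.04) were not called and turned positive under spike-in scaling. Under spike-in scaling the median of all probes rose by 0.54 and 5 genes were called higher and 17 lower, with 68.3% of all probes called. From 4 h to 24 h, 25 were called, 24 lower and Dhcr7 higher, against 29.0% lower and 27.5% higher over all probes, and 8 higher and 17 lower under spike-in scaling, with 60.8% of all probes called.

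No member of the pathway was called between nsPEF and sham at 0 h or 4 h. At 0 h none of the 29 was called by limma or by the plain analysis of variance, and limma called 0.127% of all probes. At an unadjusted p below 0.05 in limma were 3 genes: Lss (-0.15, which spike-in scaling moved to just above 0), Hsd17b7 (-0.16) and Srebf2 (0.11). At 4 h none was called by either, limma called 3.31% of all probes, and 6 genes had an unadjusted p below 0.05 in limma. The share of all probes at an unadjusted p below 0.05 is not given here, so the counts of 3 and 6 have no share to stand beside. The 6 were Mvk (-0.15), Lss (-0.16) and Scd1 (-0.14) below sham and Pmvk (0.12), Cyp51 (0.13) and Elovl6 (0.14) above it. Spike-in scaling set the median of all probes 0.19 higher in nsPEF at 4 h, and on that scale 10 genes were called higher, where 16.6% of all probes were called, and Mvk, Lss and Scd1 stood just above sham.

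At 24 h, 8 of the 29 genes were called between nsPEF and sham, and all 8 were lower in nsPEF, where 2.18% of all probes were called lower and 2.64% higher. They were Msmo1 (-0.28), Tm7sf2 (-0.28), Scd1 (-0.25), Lss (-0.24), Stard4 (-0.21), Nsdhl (-0.21), Sc5d (-0.18) and Fdft1 (-0.17). Of the 8, 6 act from squalene synthesis to cholesterol, a stretch that held 11 of the 29 genes. The others are a stearoyl-CoA desaturase and a carrier of sterol. Of the 29 genes, 24 were below sham, as were 45.7% of all probes, with a median of -0.12 against 0.02 over all probes. None of the 6 genes before squalene was called, although 5 of them were below sham, with Idi1 at -0.21 and Fdps at -0.15, and Idi1 was called under 4 of 12 alternatives and Fdps under 3. Those furthest above sham were Fasn (0.14), Mvk (0.11) and Hsd17b7 (0.11), which were not called. These differences are small: the called genes in nsPEF stood at 82.3% (Tm7sf2) to 88.7% (Fdft1) of their sham level.

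The arrays behind the leading differences at 24 h are those of Tm7sf2, given above, and of Msmo1 and Scd1. Msmo1 in sham read 6.37, 6.45, 6.30 and 6.40 (0 h), then 6.69, 6.71, 6.69 and 6.58 (4 h), then 5.49, 5.54, 5.52 and 5.48 (24 h). With nsPEF, Msmo1 read 6.30, 6.18, 6.37 and 6.35 (0 h), then 6.80, 6.77, 6.70 and 6.73 (4 h), then 5.35, 5.16, 5.24 and 5.17 (24 h). At 24 h the highest nsPEF array of Msmo1 was below the lowest sham array, whereas at 0 h and 4 h the treatments overlapped. The difference at 24 h was -0.28 ± 0.05 (SE, n = 4 per group, adjusted p = 0.00593 in limma), or 82.5% of sham. Scd1, which puts the first double bond into stearoyl-CoA, was also lower at 24 h. Scd1 in sham read 1.08, 1.02, 0.96 and 0.91 (0 h), then 0.78, 0.81, 0.92 and 0.81 (4 h), then 0.43, 0.57, 0.43 and 0.49 (24 h). With nsPEF, Scd1 read 0.98, 1.08, 0.96 and 0.88 (0 h), then 0.76, 0.71, 0.65 and 0.62 (4 h), then 0.25, 0.18, 0.31 and 0.19 (24 h). The groups of Scd1 overlapped at 0 h and were apart at 4 h, where the gene was not called (-0.14), and at 24 h, where it was (-0.25 ± 0.05, adjusted p = 0.0128 in limma). Tm7sf2 did not overlap between the treatments at 24 h either (-0.28 ± 0.06, adjusted p = 0.0158 in limma).

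**Figure D3:**
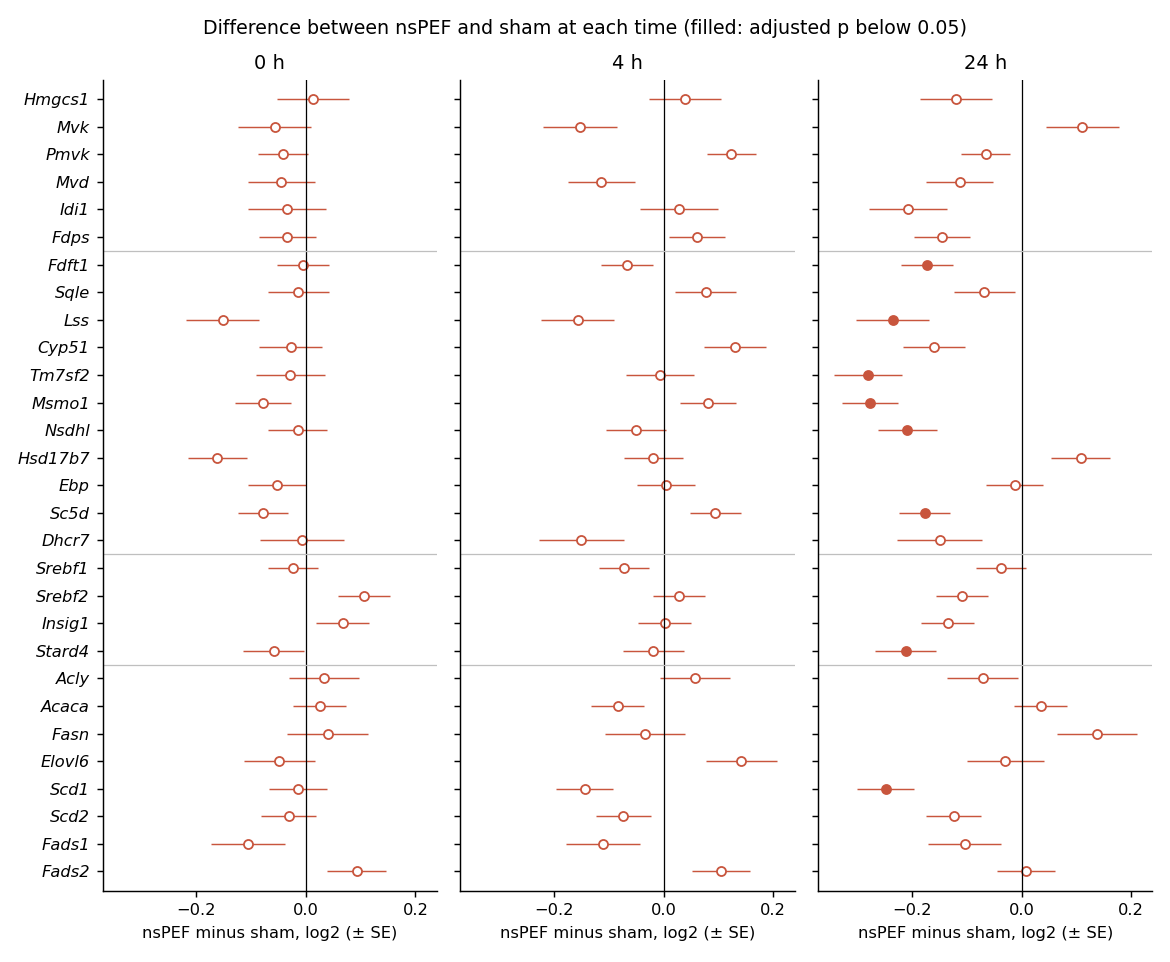
Difference between nsPEF and sham (x axis, log2, ± SE, n = 4 arrays per group, 3 for Elovl6 in nsPEF at 24 h) for the 29 genes in pathway order (y axis) at 0, 4 and 24 h (panels from left to right). Filled circles were called, which none was at 0 h or 4 h and 8 were at 24 h, all below 0 on every scaling tried.

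The 8 calls at 24 h depended on single arrays and on the scaling. Their number was 1 to 3 without replicate 1, 2 or 3 of sham at 24 h or replicate 2, 3 or 4 of nsPEF at 24 h. It was 2 under spike-in scaling, where 2.25% of all probes were called in either direction, and 1 under normexp background correction (1.54%). Quantile normalization (7.16%) and the deposited log2 values (6.29%) each gave 12. With the replicate number as a block the number was 6 (5.02%), without Lss and Fdft1. Msmo1 was called under all 12 alternatives other than leaving out arrays and in 25 of 28 settings without arrays, and Lss in 6 of the 28. Other probes of Lss (-0.26 and -0.23) and Tm7sf2 (-0.14) had the same sign without a call, and another probe of Stard4 read 0.05. The share of probes well above background was lower on the nsPEF arrays, as given above, and its part in these differences was not tested. Of the cell type markers, Ddx4 (-0.71) and Pdgfra (-0.24) were called lower in nsPEF at 24 h, and their part was not tested either. Ddx4 was well above background on only 16 of the 24 arrays. At 0 h Csf1r (-0.57) was called lower in nsPEF.

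A difference in nsPEF at 24 h and none at 0 h does not by itself show a change of effect with time. In the test of that change, none of the 29 genes was called by limma for 24 h against 0 h, for 4 h against 0 h, or over both contrasts in the F test. Of all probes, 0.353%, 0.0345% and 0.377% were called in these tests. At an unadjusted p below 0.05 in limma were 8, 3 and 12 of the 29 genes. The share of all probes at that unadjusted limit is not given here, so these counts are not read as an excess. The plain analysis of variance called 0, 0 and 1 of the 29 genes. Averaged over the 3 times, nsPEF was called lower than sham in Lss (-0.18 ± 0.04, SE) and Scd1 (-0.14 ± 0.03), against 4.44% of all probes called lower. That count ranged from 0 to 10 over the alternatives. Those that kept all arrays called 7.06% to 28% of all probes in either direction.

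Genes around the pathway were followed in 5 further lists in sham. Their counts stand beside 29.4% of all probes called higher and 29.7% lower at 4 h, and 16.9% higher and 19.7% lower at 24 h. Of 10 measured genes of SREBP processing and sterol-regulated degradation, 2 fell by 24 h (Sec24d, -0.34, a coat protein for export from the endoplasmic reticulum, and Mbtps1, -0.29, the site-1 protease) and none rose, with a median of 0.02. The escort Scap (0.04) and Insig2 (0.04) were not called. Mbtps1 had been lower at 4 h as well (-0.63), as had Ubxn1 (-0.38), while Rnf139, a ubiquitin ligase of the endoplasmic reticulum, rose by 0.26. Both falls at 24 h turned positive under spike-in scaling (Sec24d 0.36, Mbtps1 0.41), and the calls named at 4 h kept their sign on every scaling.

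The isoprenoid branch that leaves the sterol route after farnesyl diphosphate had 6 genes higher and 2 lower of 10 at 4 h in sham, and 1 higher and 4 lower at 24 h, with medians of 0.16 and -0.12. At 4 h Coq2 (-0.93) and Dhdds (-0.90), which prenylate the ubiquinone ring and build dolichol, fell, and Pdss1 (0.78), which makes the ubiquinone side chain, and Nus1 (0.46), the partner of Dhdds, rose. At 24 h the 4 that fell were Fnta (-0.28) and Fntb (-0.22), the farnesyltransferase subunits, Pggt1b (-0.19) and Coq2 (-0.17), each of which turned positive under spike-in scaling (0.42, 0.48, 0.50 and 0.52).

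Of 13 measured genes of acetyl-CoA supply and fatty acid chain building, 4 rose and 6 fell by 4 h in sham, and 1 rose and 9 fell by 24 h, with medians of -0.15 and -0.21. The phosphatidate phosphatase Lpin1, also a known SREBP target, fell by 2.53 at 4 h, the acetyl-CoA synthetase Acss2 by 1.03 and the mitochondrial carboxylase Acacb by 1.00, while Hacd3, a dehydratase of chain elongation, rose by 1.04. At 24 h Lpin1 (-0.57), Acss2 (-0.53), the citrate carrier Slc25a1 (-0.45) and Aacs (-0.43), which activates acetoacetate, were lower, and all 4 turned positive under spike-in scaling (0.13, 0.17, 0.25 and 0.27). Lpin1 was lower in nsPEF than in sham at 24 h (-0.38, adjusted p = 0.0118 in limma).

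Of 5 measured LXR targets and export genes, 1 rose and 4 fell by 4 h (the exporter Abca1, -1.09, the receptors Nr1h3, -1.38, and Nr1h2, -0.36, and Apoe, 1.07), and none was called at 24 h in limma, where 1 had an unadjusted p below 0.05. Of 10 genes of uptake, lysosomal release and storage, 3 rose and 4 fell by 4 h, led by the hormone-sensitive lipase Lipe (-1.79), the cholesterol acyltransferase Soat1 (1.35), the lysosomal lipase Lipa (-1.19) and Tmem97 (0.82). By 24 h, 2 had risen and 6 fallen, with Scarb1, the HDL receptor, at -0.67, Lipe at -0.47, Lipa at -0.45 and Osbp, an oxysterol-binding protein, at 0.40. The first 3 of these turned positive under spike-in scaling (0.03, 0.22 and 0.24). Between nsPEF and sham at 24 h, Npc2 (-0.21) was lower and Apoe (0.33) and Fntb (0.23) were higher, and Coq2 (-0.20) was lower. At 4 h Coq2 (-0.21) and Stard3 (-0.19) were lower in nsPEF, and both were near 0 under spike-in scaling.

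**Figure D4:**
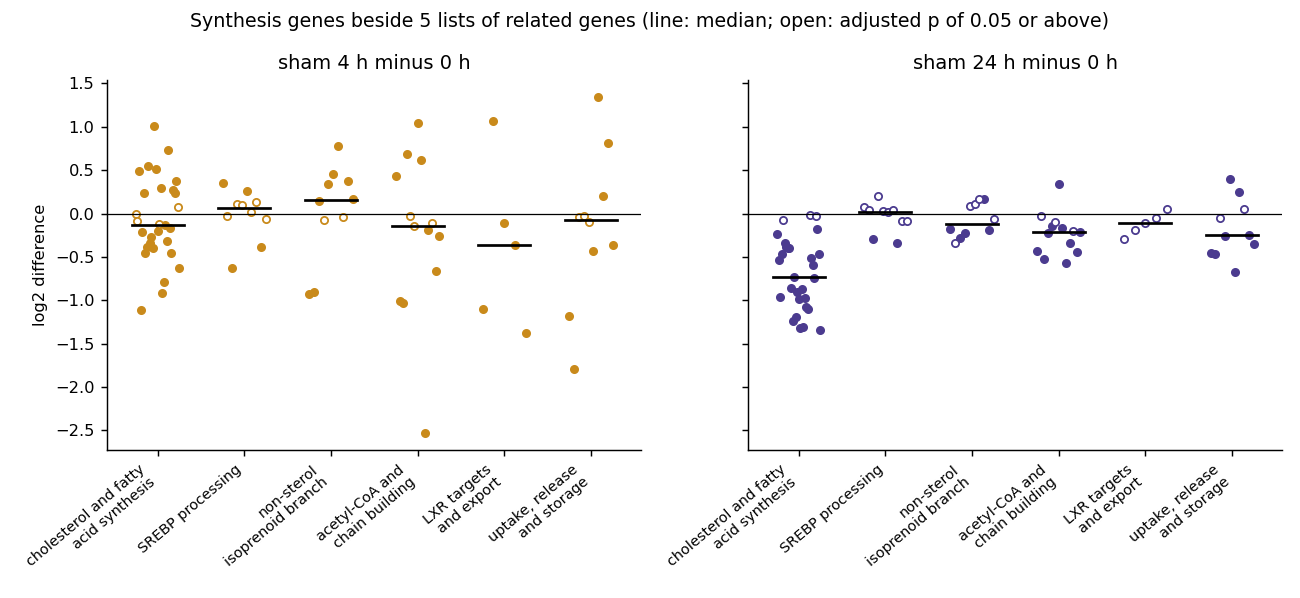
Log2 difference from 0 h in sham (y axis) at 4 h (left) and 24 h (right) for the 29 synthesis genes and 5 lists of related genes (x axis), with 1 circle per gene, filled where called, and a line at the median. At 24 h the median of the synthesis genes is -0.74 and those of the other lists run from -0.25 to 0.02, with arrays scaled on their 75th percentile. Spike-in scaling raises all points at 24 h by the same 0.70.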

How the data were processed

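RNA of 24 samples was hybridised to one-colour Agilent arrays of 62976 spots. The authors read the scans with Agilent Feature Extraction 12.0 and deposited intensity values per spot, with the processed signal background-subtracted and detrended and not scaled between arrays. They also deposited a table of log2 values, scaled on the 75th percentile and set to the median of each probe, which was used as an alternative. Here, marked outlier spots were dropped, log2 of the processed signal was taken, and the 75th percentile of each array was subtracted. Probes well above background on at least 2 of 4 arrays of any group were tested (37684) in limma 3.58.1 (R 4.3.3), with 1 mean per group and Benjamini-Hochberg adjustment. Probes were named through RefSeq accessions (34566 matched, 61.1%), and a gene was read by its matched probe of highest mean.

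The script was tested on simulated data of 35691 probes, with shifts planted between nsPEF and sham at 4 h. It called 51 of 100 probes shifted by 0.5 and 60 of 100 shifted by 1, with 4 false calls. The absence of a call thus does not show that a gene was unchanged. The genes and lists were chosen with earlier results of these data known, so their counts are not independent support. All 30 genes were to be named, with every array given for the 6 largest changes over time in sham and up to 3 per time between nsPEF and sham, and in each related list up to 4 called genes of largest size were named per comparison, except 1 gene that is not reported here. The p-values rest on 4 biological replicates per group. The replicate number was not a term of the fit. Alternatives were other scalings, background correction, filters, probe rules, a plain analysis of variance, a replicate block, and leaving out arrays.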

Additional observations from a re-analysis of the deposited data

Results flagged for a closer look

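Of 174 sets of arrays (29 genes in 6 groups), all but that of Elovl6 in nsPEF at 24 h (n = 3) held 4 arrays and were examined. In 3 of the sets of 4 the highest or lowest array stood apart from the other 3 by Dixon's criterion, where chance marks about 1 in 20 groups. Cyp51 read 3.15 in replicate 4 of sham at 24 h, and the other 3 arrays read 2.91 to 2.94. Srebf1 read 3.58 in replicate 1 of nsPEF at 24 h, and the others 3.65 to 3.66. Fads1 read 2.61 in replicate 2 of nsPEF at 4 h, and the others 2.71 to 2.72.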

How the results depend on the processing

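Gene values were recomputed for 4 h and 24 h against 0 h in sham and for nsPEF against sham at each time, and the other comparisons by counts alone. Of 5800 gene values, 5599 kept their direction and side of the threshold, 150 lost a call, 35 gained one and 16 reversed. Of the reversals, 14 were in sham at 24 h against 0 h under spike-in scaling, which shifts all probes alike: Ebp 0.62, Sc5d 0.68, Dhcr7 0.23, Srebf1 0.67, Srebf2 0.52, Stard4 0.23, Acly 0.17, Acaca 0.46, Fasn 0.30, Elovl6 0.36, Scd1 0.19, Scd2 0.11, Fads1 0.31 and Fads2 0.30. The other 2 were Fads2 between nsPEF and sham with values centred by blocks of rows, -0.21 at 4 h and -0.22 at 24 h, and the cause was not tested. Counts over time ranged without arrays from 23 to 25, 25 to 26 and 24 to 27 in sham (4 h against 0 h, 24 h against 0 h, 24 h against 4 h) and from 23 to 27, 26 to 27 and 23 to 25 in nsPEF. Between nsPEF and sham at 24 h the count of 8 became 2 under spike-in scaling (2.25% of all probes called) and 1 under normexp (1.54%). It was 0 to 9 without arrays, with 0 without replicate number 2, 3 or 4. At 4 h the count of 0 became 1 under quantile normalization (5.91% of all probes called) and under the percentile over detected probes (2.9%). Spike-in scaling gave 10 (16.6%), and all of these calls were higher in nsPEF. With centring by rows the count became 3, all lower (8.35%), and it stayed 0 without arrays. Averaged over times, the count of 2 became 4 (quantile, 12.3% of all probes called) and 1 (spike-in, 14%, and detected probes, 7.12%). It became 5 under normexp (7.66%), no filter (28%) and plain analysis of variance (9.05%). It became 10 with deposited log2 values (13.1%) and marked spots kept (13%), and 6 with centring by rows (11.4%). The spike-in call and 1 of the 5 under normexp were higher in nsPEF, and the other calls here were lower. Without arrays it was 0 to 5 (4 without replicate 3 of sham or of nsPEF at 0 h, 5 without replicate 4 of sham at 4 h or replicate 1 of nsPEF at 24 h, and 0 without replicate number 1, 2 or 3). The difference of the nsPEF effect between 24 h and 0 h gave 3 under spike-in scaling (3.08% of all probes called) and 0 to 1 without arrays. The F test gave 10 under spike-in scaling (4.68%). It gave 1 under the percentile over detected probes (0.395%), the plain analysis of variance (0.634%) and the mean of a gene's probes (0.382%). Without arrays it gave 0 to 3, with 3 without replicate 1 of nsPEF at 24 h. Per the methods, tests of a biological replicate used a common cell suspension, but the labels do not say that a number marks it. Same-numbered samples had correlations of deviations from the group means of -0.065 to 0.0997 over 35691 probes. All 4 sham samples at 4 h correlated best with their own number in nsPEF at 4 h and in sham at 24 h. Of the nsPEF samples at 4 h, 3 of 4 did so in nsPEF at 24 h. Of the nsPEF samples at 0 h, 0 did so in nsPEF at 4 h, and the other pairs of groups gave 1 or 2. With the replicate number as a block, the counts were 25, 26 and 27 in sham (59.5%, 37.3% and 58% of all probes called) and 26, 26 and 26 in nsPEF (61.7%, 43% and 57%). Between treatments they were 0, 0 and 6 at 0, 4 and 24 h (0.141%, 3.23% and 5.02%). Choosing probes by a gene name column was not run. The number of arrays limits the precision of every value.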
